A study of Homo sapiens with 8 samples.

Results

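The 9 genes described here, all of cell adhesion, were measured on 8 expression arrays of PC3 prostate cancer cells. They are EPCAM, which encodes the epithelial cell adhesion molecule, and the claudins CLDN1, CLDN3, CLDN4, CLDN7, CLDN8, CLDN11, CLDN12 and CLDN16. Members were taken by symbol, with every probe set that the array's annotation gives to one of these symbols alone. This gave 9 genes of 19775 named on the array, and 14 probe sets of the 54613 that are not controls. One more probe set is shared between CLDN12 and PTTG1IP2 and was left out, at 2.86 to 3.04 on the log2 scale on untransduced arrays and 4.21 to 4.52 on transduced arrays, in both cases below the bacterial controls described further on. The study drew a signature of genes that differ in both comparisons from these same arrays, TSPAN8 and OVOL2 among them, and the 9 genes were chosen with earlier results of the arrays known, so the directions given here are no independent evidence.

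PC3 is an established human prostate cancer cell line. The EMT lines (PC3-EMT1, -EMT12 and -EMT14) are mesenchymal populations isolated after PC3-Epi cells had been grown together with macrophages (EMT stands for epithelial to mesenchymal transition, 3 arrays), and they were set against PC3-Epi, a luciferase-positive epithelial population of PC3 chosen by its light signal and cell shape (1 array). PC3-EMT1 and PC3-EMT14 were also transduced with lentivirus carrying either sh4, a short hairpin RNA against the transcriptional repressor ZEB1 (2 arrays, labelled epithelial), or Scr, a scrambled hairpin (2 arrays, labelled mesenchymal). All lines descend from the 1 PC3-Epi population and so share its luciferase vector, and each line is 1 isolate with 1 array per condition.

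Claudins are membrane proteins that cross the membrane several times and form the strands of tight junctions, where they seal the space between neighbouring epithelial cells or let chosen ions through. EPCAM is a single-pass glycoprotein of simple epithelia and carcinomas that binds claudin-7 in the membrane and protects it from degradation. Loss of tight junction and adhesion genes is a textbook feature of the transition to a mesenchymal state. ZEB1, which binds E-box elements in DNA, is one of the best known repressors of such epithelial genes.

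The promoters of 3 claudins are shown because these genes stand for 3 of the patterns in the levels: CLDN7 was lower in the EMT lines and higher with sh4, CLDN12 was lower in the EMT lines with little difference between sh4 and Scr, and CLDN4 differed little in either comparison. Each line holds the 250 bases before an annotated start site, from RefSeq on GRCh38.p14, 5′ to 3′ on the strand of the gene. Capitals mark the E-box CAGGTG, which read on the opposite strand is CACCTG, so that both spellings are the same element.
CLDN7, chr17:7262479-7262728, minus strand: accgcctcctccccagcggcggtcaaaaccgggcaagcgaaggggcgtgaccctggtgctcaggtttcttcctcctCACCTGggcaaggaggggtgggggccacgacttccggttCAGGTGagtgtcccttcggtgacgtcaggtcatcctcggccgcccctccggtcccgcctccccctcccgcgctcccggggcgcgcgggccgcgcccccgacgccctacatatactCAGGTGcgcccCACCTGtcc
CLDN12, chr7:90403211-90403460, plus strand: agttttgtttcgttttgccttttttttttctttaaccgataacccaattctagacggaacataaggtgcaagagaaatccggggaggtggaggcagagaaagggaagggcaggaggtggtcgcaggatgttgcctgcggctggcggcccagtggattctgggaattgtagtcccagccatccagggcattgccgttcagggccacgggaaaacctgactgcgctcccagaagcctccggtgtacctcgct
CLDN4, chr7:73830746-73830995, plus strand: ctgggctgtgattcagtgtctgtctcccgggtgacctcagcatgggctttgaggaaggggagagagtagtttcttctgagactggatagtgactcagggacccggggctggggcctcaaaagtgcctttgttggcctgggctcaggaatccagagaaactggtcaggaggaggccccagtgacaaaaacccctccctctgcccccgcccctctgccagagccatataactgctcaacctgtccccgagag
The CLDN7 promoter held 4 such elements in the stretch printed, whose first bases lie 174, 135, 20 and 9 bases before the start site, and 1 more at base 6 after it. CLDN12 and CLDN4 held none in these windows. Of 35116 promoter windows of 300 bases (250 before the start and 50 after), 20.6% held at least 1 and 0.094% held 5 or more. Windows existed for 7 of the 9 genes, 10 windows in all. The other CLDN7 window, at an upstream start, held none, nor did the windows of CLDN1 and CLDN11, whereas CLDN3 and 1 of the 2 CLDN16 windows held 1 each, after the start. EPCAM and CLDN8 were not searched. A match is a description of the letters and not evidence of binding.

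Of the 14 probe sets, the 1 of EPCAM and some of the claudins carry the array maker's suffix s, which marks probes shared by several transcripts, and the brighter of CLDN3 the suffix x, which marks probes that may also match unrelated transcripts. Levels are log2 values from robust multi-array averaging (RMA), and levels of different probe sets are not comparable with each other. The untransduced and transduced arrays were scaled apart, with array medians of 4.33 to 4.35 and 6.19 to 6.23, so differences were taken only within each set. As a measure of background, the highest of 27 bacterial control probe sets stood at 4.56 on the untransduced arrays and at 6.00 on the transduced arrays. The labels were checked first. Where all arrays of a group lay at or below that control, its level is only a bound, and the difference from the other group's mean to the control is given as at least that much. ZEB1 (brightest of 4 probe sets) was called higher in the EMT lines than in PC3-Epi, where it was below the controls, by at least 2.25, and sh4 minus Scr was −0.74 in PC3-EMT1 and −1.07 in PC3-EMT14. Of 6 epithelial markers 3 were called lower in the EMT lines and 0 higher (50%). Of 4 mesenchymal markers 3, ZEB1 among them, were called higher (75%), beside 27.8% of all genes called either way. The rest of these markers were not called. None of 13 macrophage markers exceeded the bacterial controls on any untransduced array, and 2 or 3 did on each transduced array. The untransduced array medians, 4.33 to 4.35, lay below the highest control at 4.56, but the transduced ones, 6.19 to 6.23, above theirs at 6.00. Most of all probe sets thus exceeded the controls on transduced arrays, where the medians of the macrophage markers were 5.21 to 5.41.

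Within the untransduced arrays, EPCAM, CLDN7 and CLDN12 were lower in all 3 EMT lines than in PC3-Epi, whereas the other claudins that could be tested, CLDN1, CLDN3, CLDN4 and CLDN11, did not pass the test. Probe sets entered this comparison when at least 1 array reached log2 5, which 10 of the 14 did, covering 7 of the 9 genes. Of these 10, 3 were called lower and 0 higher by limma at an adjusted p of 0.05, beside 15.5% called lower and 11% called higher of all 24822 probe sets tested. A stricter count, of probe sets at least 2-fold apart from PC3-Epi the same way in each line, gave 2 lower (EPCAM and CLDN7) and 0 higher, beside 4.95% and 2.24% of all. The median difference of the 10 was −0.07, against 0.04 over all probe sets tested. With 1 PC3-Epi array, the test rests on the spread among the EMT lines and assumes that PC3-Epi varies like them. In RNA from whole cultures, fewer cells that express a gene and less RNA per cell cannot be told apart.

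**Figure D1:**
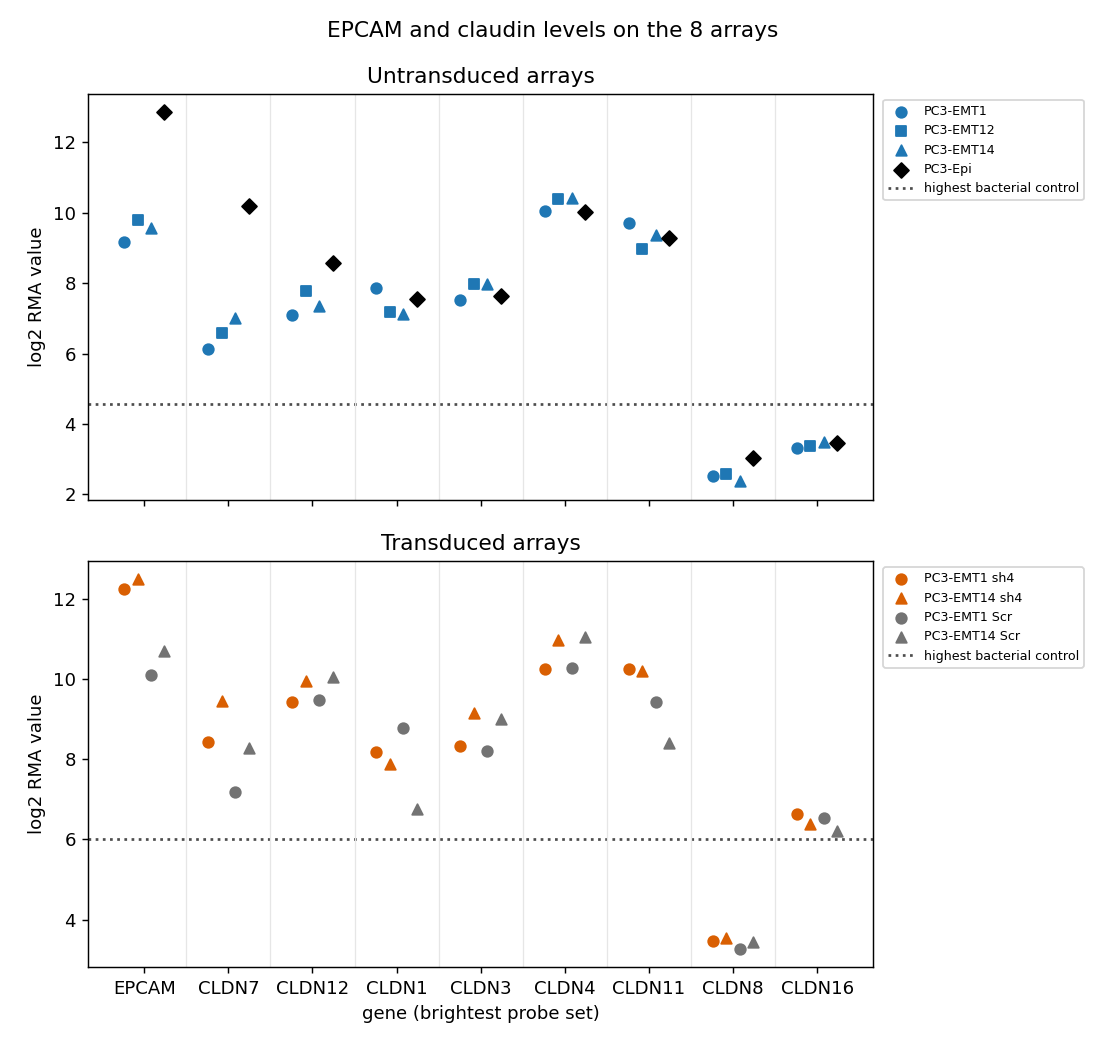
Level of each gene (log2 RMA value, brightest probe set) on every array, untransduced above and transduced below, with the highest bacterial control as a dotted line. EPCAM and CLDN7 in the 3 EMT lines lie more than 3 log2 units below PC3-Epi. On the transduced arrays both sh4 arrays lie above both Scr arrays for EPCAM, CLDN7 and CLDN11 (and for CLDN8, below the controls). The share of all probe sets that separate this way is not given, so the separation describes the points only.

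EPCAM read 9.16, 9.80 and 9.58 in PC3-EMT1, -EMT12 and -EMT14, against 12.86 in PC3-Epi. All EMT lines were below PC3-Epi, within 0.64 of each other. The difference was −3.35 ± 0.26 on the log2 scale (SE, n = 3 lines against 1 array), or 10.2-fold lower, with a 95% interval of −3.97 to −2.73 and a limma adjusted p of 0.00104. The EMT lines still read far above the bacterial controls, so EPCAM remained detectable in each.

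CLDN7, the claudin that pairs with EPCAM, read 6.14, 6.58 and 7.02 in PC3-EMT1, -EMT12 and -EMT14, against 10.20 in PC3-Epi. Again no EMT line came near PC3-Epi, and the lowest of them was less than 2 log2 units above background. The difference was −3.62 ± 0.32 (SE, n = 3 lines against 1 array), or 12.3-fold lower, with a 95% interval of −4.41 to −2.84 and a limma adjusted p of 0.00167. It was the most negative difference among the claudin probe sets tested.

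CLDN12, an unusual claudin that lacks the tail motif by which most of the family bind scaffold proteins, read 7.09, 7.78 and 7.37 in PC3-EMT1, -EMT12 and -EMT14, against 8.58 in PC3-Epi. Every EMT line was lower, but PC3-EMT12 by less than 2-fold, at −0.80. The difference was −1.17 ± 0.27 (SE, n = 3 lines against 1 array), or 2.25-fold lower, with a 95% interval of −1.82 to −0.52 and a limma adjusted p of 0.0272.

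The sealing claudins CLDN1, CLDN3 and CLDN4 are common to most simple epithelia. CLDN4 read 10.06, 10.40 and 10.42 in PC3-EMT1, -EMT12 and -EMT14, against 10.02 in PC3-Epi, with a difference of 0.27 ± 0.20, a 95% interval of −0.21 to 0.75 and a limma adjusted p of 0.330. All 3 EMT lines were thus at or slightly above PC3-Epi, and the interval leaves out a 2-fold difference in either direction. A second CLDN4 probe set stayed below the bacterial controls, at 4.07 to 4.22 in the EMT lines and 4.20 in PC3-Epi. The brighter probe set of CLDN3 read 7.52, 7.99 and 7.99 in the EMT lines in the same order, against 7.64 in PC3-Epi, with a 95% interval of the difference of −0.37 to 0.75 and a limma adjusted p of 0.554. The second gave 0.23, with a limma adjusted p of 0.373. The brighter probe set of CLDN1 read 7.87, 7.17 and 7.13 in the EMT lines in the same order, against 7.56 in PC3-Epi. PC3-EMT1 lay above PC3-Epi and the other two below it, the interval ran from −0.93 to 0.58 with a limma adjusted p of 0.698, and the dimmer probe set showed the same order of signs, at 0.21, −0.57 and −0.38. Intervals that include 0 do not show that these levels were equal.

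CLDN11 is the claudin of Sertoli cells and of myelin. Its brightest probe set read 9.70, 8.97 and 9.36 in PC3-EMT1, -EMT12 and -EMT14, against 9.29 in PC3-Epi, with a 95% interval of the difference of −0.62 to 0.74 and a limma adjusted p of 0.889. PC3-Epi thus fell within the range of the EMT lines. The second probe set read 5.61 to 5.79 in the EMT lines and 5.66 in PC3-Epi, and the third stayed below the bacterial controls on all 8 arrays.

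CLDN8 and CLDN16 are best known from the kidney tubule, where claudin-16 serves magnesium reabsorption. CLDN8 read 2.37 to 2.59 in the EMT lines and 3.05 in PC3-Epi, and 3.46 and 3.54 with sh4 against 3.27 and 3.43 with Scr, below the bacterial controls on every array, so no difference was tested. CLDN16 read 3.31 to 3.48 in the EMT lines and 3.46 in PC3-Epi, also below the controls. On the transduced arrays it read 6.65 and 6.38 with sh4 in PC3-EMT1 and PC3-EMT14, against 6.53 and 6.20 with Scr, just over the controls, with a limma adjusted p of 0.581. In the RefSeq annotation CLDN1 lies inside the span of CLDN16 on chromosome 3, and CLDN3 and CLDN4 are neighbours on chromosome 7 with 0 protein-coding genes between them.

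**Figure D2:**
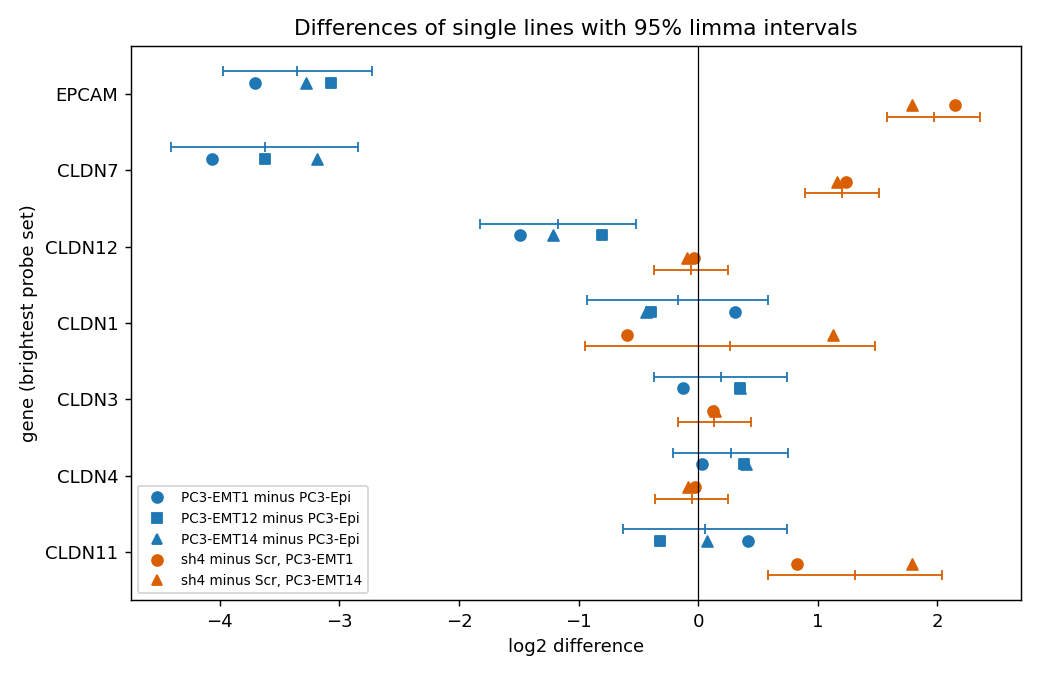
Log2 differences of single lines (symbols) with the limma 95% interval of the mean difference (bars), for EMT lines minus PC3-Epi (blue) and sh4 minus Scr (orange). EPCAM and CLDN7 differ in opposite directions in the 2 comparisons, the interval excludes 0 for the EMT lines but not for sh4 in CLDN12, and for sh4 but not for the EMT lines in CLDN11. The intervals are not adjusted for the number of probe sets, and no sh4 difference passed the adjusted test. For sh4, the second CLDN11 probe set (not shown) had an interval of −0.13 to 0.72.

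The question of the transduced arrays was which of these genes differed when ZEB1 was targeted. On the brightest probe set, EPCAM, CLDN7 and CLDN11 read higher with sh4 than with Scr in both lines, by at least 0.82. CLDN3, CLDN16 and CLDN8 (below the controls) were also higher in both lines, by only 0.11 to 0.19. However, 0 of all 40865 probe sets passed the limma test with the line as a block (0% higher, 0% lower). That test has 1 residual degree of freedom plus a prior of 3.08. The smallest adjusted p over all probe sets was 0.131, while 5527 (13.5%) had an unadjusted p under 0.05. Of the 14 probe sets, 12 passed the filter (8 of 9 genes), 3 of them had an unadjusted p under 0.05, each higher with sh4, and their median difference was 0.22, against 0.01 over all. By the count of 2-fold or more in both lines, 2 were higher (EPCAM and CLDN7) and 0 lower, beside 0.176% higher and 0.11% lower of all probe sets tested. ZEB1 itself had an adjusted p of 0.333.

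EPCAM read 12.26 and 12.50 with sh4 in PC3-EMT1 and PC3-EMT14, against 10.12 and 10.71 with Scr. Both sh4 arrays were above both Scr arrays, which describes these arrays only, since the share of all probe sets that separate this way is not given. The difference was 1.97 ± 0.14 (SE, n = 2 lines), or 3.91-fold, with a 95% interval of 1.58 to 2.36 and a limma adjusted p of 0.267. Where the untransduced PC3-EMT1 and PC3-EMT14 arrays were added to the fit as a group of their own, with the line as a block, the same difference had an adjusted p of 0.00474. That fit takes its spread and its line effect from both sets, which were scaled apart, and this limits what its lower p shows.

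CLDN7 read 8.43 and 9.45 with sh4 in PC3-EMT1 and PC3-EMT14, against 7.19 and 8.29 with Scr. The groups did not overlap, which again describes these arrays only, and PC3-EMT1 with sh4 was only slightly above PC3-EMT14 with Scr. Within lines the differences were alike, at 1.24 and 1.16, and their mean was 1.20 ± 0.11 (SE, n = 2 lines), or 2.30-fold, with a 95% interval of 0.89 to 1.51. The limma adjusted p was 0.280, and 0.0143 in the fit with 6 arrays. Set beside the comparison of the EMT lines, the untransduced PC3-EMT1 and PC3-EMT14 arrays minus PC3-Epi gave −4.06 and −3.19 for CLDN7, and −3.70 and −3.28 for EPCAM.

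CLDN11 read 10.26 and 10.20 with sh4 in PC3-EMT1 and PC3-EMT14, against 9.43 and 8.41 with Scr. The sh4 arrays were nearly level, so that the unequal differences of 0.82 and 1.79 came with unequal Scr arrays. The mean difference was 1.31 ± 0.26 (SE, n = 2 lines), with a 95% interval of 0.58 to 2.03 and a limma adjusted p of 0.333, and 0.0603 with 6 arrays. Its second probe set gave 0.08 and 0.51, so the 2 probe sets differ in size, and the mean of the CLDN11 probe sets gave 0.51. With the PC3-EMT14 Scr array left out, and no block, the brightest gave 0.80.

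CLDN12, by contrast with its level in the EMT lines, differed by −0.06 between sh4 and Scr. It read 9.44 and 9.96 with sh4 in PC3-EMT1 and PC3-EMT14, against 9.47 and 10.06 with Scr, with a 95% interval of −0.37 to 0.25 and a limma adjusted p of 0.822. CLDN4 likewise read 10.25 and 10.98 with sh4, against 10.28 and 11.06 with Scr, with an interval of −0.36 to 0.25. Its dim second probe set gave 0.28 with a limma adjusted p of 0.391, with 3 of its 4 arrays above the bacterial controls. For CLDN12 and the brighter CLDN4 probe set the line made more difference than the hairpin. The 2 probe sets of CLDN3 pointed in opposite directions, at 0.13 for the brighter and −0.33 for the dimmer, with limma adjusted p values of 0.605 and 0.372.

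The brighter probe set of CLDN1 read 8.19 and 7.90 with sh4 in PC3-EMT1 and PC3-EMT14, against 8.79 and 6.77 with Scr. Here sh4 was below Scr in PC3-EMT1, with a difference of −0.60, and above it in PC3-EMT14, with 1.12, and the interval of the mean ran from −0.95 to 1.48. The dimmer probe set gave 0.02 and 0.34, with 2 of its 4 arrays above the bacterial controls.

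**Figure D3:**
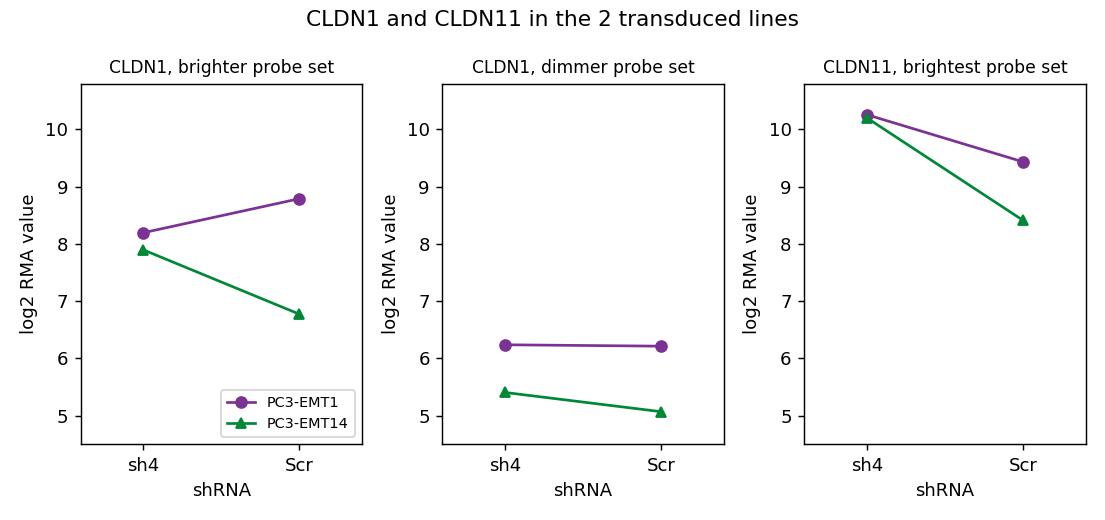
Levels (log2 RMA value) of CLDN1 and CLDN11 with sh4 and Scr, with a line joining the arrays of each cell line. The brighter CLDN1 probe set differs in opposite directions in the 2 lines, and the CLDN11 sh4 arrays lie 0.06 apart.

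For several of these genes the lines differed in the same direction untransduced, with sh4 and with Scr. PC3-EMT1 minus PC3-EMT14 was −0.87 untransduced, −1.02 with sh4 and −1.09 with Scr for CLDN7. CLDN4 was likewise lower in PC3-EMT1, at −0.36, −0.73 and −0.78 in the same order. The brighter CLDN1 probe set ran the other way, higher in PC3-EMT1 by 0.75 untransduced, 0.30 with sh4 and 2.02 with Scr. On the brightest probe sets EPCAM, CLDN3 and CLDN12 were also lower in PC3-EMT1 each time, and CLDN11 higher. Each of these is a difference between single arrays and was not tested, and the share of all genes that repeat in this way is not given.

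The partners of these genes were read from lists chosen with earlier results of these data known, 1 probe set a gene. Of 26 tight junction partners on the array 24 were tested in the EMT lines, of which 14 were called lower and 0 higher, with a median of −0.90, against 0.07 over all 11921 genes tested, of which 27.8% were called. LSR, the angulin that recruits tricellular junction proteins, had a difference of −4.88, PATJ, a polarity scaffold, −3.21, and CXADR, an adhesion receptor, −3.03. PATJ was above the bacterial controls in 2 of the 3 EMT lines. LSR read 4.74 to 5.04 in the EMT lines and CXADR 4.63 in PC3-EMT14, little above the highest control at 4.56. Background thus limits how well the sizes of these differences are known. MARVELD3, a relative of occludin, was below the controls in all 3 EMT lines and so at least 6.10-fold lower than in PC3-Epi. In the sh4 comparison 0 of 26 were called, 9 had an unadjusted p under 0.05, and LSR gave 3.35 with an adjusted p of 0.131. The LSR level with Scr was near the bacterial controls.

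Of the 12 other claudins on the array 4 were tested in the EMT lines, and 1 was called (25%, beside 27.8% over all genes). This was CLDN14, higher by 1.31 with a limma adjusted p of 0.0035. Its levels were 6.11, 6.09 and 6.17 in PC3-EMT1, -EMT12 and -EMT14, against 4.81 in PC3-Epi, which is close to the bacterial controls. Of the EPCAM partners and proteases 14 were tested in the EMT lines, with 2 called higher and 3 lower. That is 35.7%, not far from the 27.8% over all genes, and the median was −0.01. ST14 (matriptase, a membrane protease that cleaves EPCAM) had a difference of −4.87, its inhibitor SPINT1 −1.14 and the protease ADAM10 −1.19, whereas the tetraspanin CD151 was higher by 0.71. TSPAN8, another tetraspanin, was below the bacterial controls in PC3-Epi and at least 17.0-fold higher in the EMT lines. TSPAN8 belongs to the study's signature from these arrays. In the sh4 comparison 0 of 15 were called and TSPAN8 gave −1.81.

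Of 9 kinases and traffic proteins that act on claudins, 3 were called in the EMT lines (33.3%, near the 27.8% over all genes), with a median of 0.38. RAB14 (−0.57) was called lower and STX8 (0.55) higher. The ubiquitin ligase LNX1 was also called lower, by at least 1.90-fold, with all 3 EMT lines below the bacterial controls. Of 13 tested repressors and activators of epithelial genes 8 were called lower and 1 higher, ZEB1. That is 69.2%, beside the 27.8% over all genes, and the median was −1.34. Among those called lower, the activators EHF and GRHL2 and the zinc finger factors OVOL2 and OVOL1 lay below the bacterial controls in all 3 EMT lines. Against PC3-Epi they were at least 22.9-fold (EHF), 19.4-fold (GRHL2), 18.9-fold (OVOL2) and 6.26-fold (OVOL1) lower, bounds that set no order among them. EHF and OVOL2 belong to the study's signature. None of either list was called in the sh4 comparison, in which 0 of all 40865 probe sets passed. Of 16 repressors and activators on the array, EHF and OVOL2 were at least 2-fold higher with sh4 in both lines, and 0 lower. Their differences in PC3-EMT1 and PC3-EMT14 were 1.15 and 2.32 (EHF), and 1.00 and 1.75 (OVOL2). Over all 16661 genes tested, 46 were that much higher and 22 lower. OVOL2 with Scr, and EHF with Scr in PC3-EMT14, lay below the bacterial controls, so these sizes are uncertain.

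**Figure D4:**
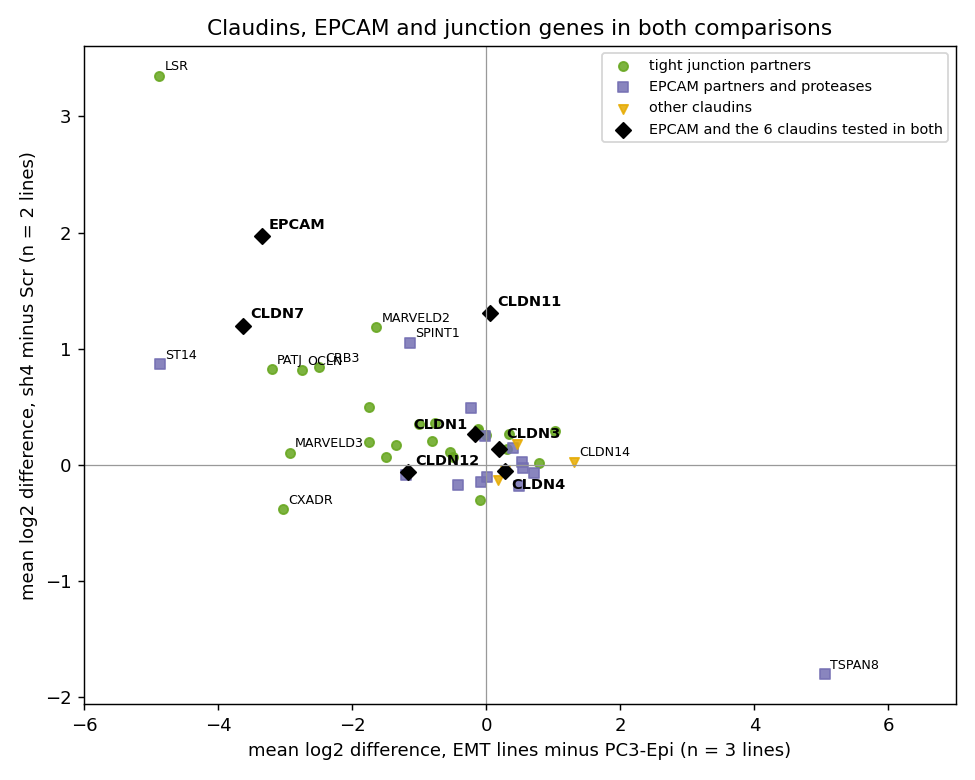
Mean log2 difference of EMT lines minus PC3-Epi (x axis) and of sh4 minus Scr (y axis) for EPCAM, the claudins tested in both comparisons and the partner lists, 1 point a gene. EPCAM and CLDN7 lie at upper left with LSR, and CLDN12 lies near 0 on the y axis, as MARVELD3 does further left. MARVELD3 in the EMT lines and TSPAN8 in PC3-Epi were below the bacterial controls, so the sizes of their x values, plotted as measured, are uncertain. The controls bound these differences only at 2.61 or more lower for MARVELD3 and 4.08 or more higher for TSPAN8.

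Genes most like EPCAM, CLDN7 and CLDN12 were found by the root mean square distance over 5 differences (3 EMT lines against PC3-Epi, 2 lines of sh4 against Scr) among 11906 genes. Nearest to EPCAM were ELOVL7, CDS1, KDF1, MCOLN3 and LCP1, at distances of 0.293 to 0.546 log2 units. Nearest to CLDN7 were SH3YL1, RBM47, ANKRD22, ZNF165 and GPR160, at 0.363 to 0.390. Nearest to CLDN12 were LGALSL, STAG1, PSD3, RDX and MCM3AP-AS1, at 0.0698 to 0.0829. With PC3-EMT12 left out, 4 of the 5 were again nearest for EPCAM, 4 of 5 for CLDN7 and 2 of 5 for CLDN12.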

How the data were processed

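Total RNA of 8 cultures was hybridised to Affymetrix human U133 Plus arrays. The deposited values are log2 RMA expression values that the authors made with the affy package, per the labels, and were used as deposited. Probe sets were named by the platform annotation. Probe sets below log2 5 on all arrays of a comparison were left out of it.

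The EMT lines were compared with PC3-Epi on 4 arrays by group (2 residual degrees of freedom plus a prior of 4.14), and sh4 with Scr on 4 arrays by group with the cell line as a block. Both were fitted with limma 3.58.1 in R 4.3.3, with Benjamini-Hochberg adjustment over all probe sets tested. The code was tested on simulated data. Replicate numbers are those of the cell lines, which pairs sh4 and Scr arrays, and deviations of paired arrays correlated at 0.499 over 9046 genes. No separate cultures are described as replicates, so p-values measure the spread between these samples, which may be technical, and the number of arrays limits precision.

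Alternatives changed the filter, the summary of probe sets, the scaling, the prior, the fold limit, the block and the arrays used. Named genes were all 9 genes, ZEB1 and CDH1, up to 4 called genes a list with the largest differences, and the 5 nearest genes of each gene whose mean difference in the EMT lines was 1 or more. CD151 falls outside this rule and was named after its value was seen. CDH1, the E-cadherin gene, was at least 107-fold lower in the EMT lines, where it was below the bacterial controls. The members and lists were chosen with earlier results of these data known.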

Additional observations from a re-analysis of the deposited data

Results flagged for a closer look

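The brighter CLDN1 probe set stood out because the 2 transduced lines differed in opposite directions: sh4 minus Scr was −0.595 in PC3-EMT1 and 1.12 in PC3-EMT14. With 1 array for each line and hairpin, the difference between the lines was not tested.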

How the results depend on the processing

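In all 14 alternatives EPCAM, CLDN7 and CLDN12 were called lower in the EMT lines, with adjusted p values up to 0.00171 for EPCAM and 0.0446 for CLDN12. The number of features called among all tested, 6563, was 3496 with the brightest probe set of each gene and 3200 with their mean, where fewer features were tested, and 3314 to 9160 when 1 line was left out (3314 without PC3-EMT14, 9160 without PC3-EMT12; the cause was not tested). For sh4 against Scr the call depended on the setting. Against 0 features called, 6 were called with the filter at log2 7, 6 with cyclic loess, 15 with the mean of probe sets, 19 with median centring, 19 with quantile normalization, 1 without the replicate block and 198 with 6 arrays and the block. EPCAM was the 1 probe set of the 14 called higher with the mean of probe sets, median centring and quantile normalization (adjusted p 0.0398, 0.0466 and 0.0477), and EPCAM and CLDN7, 2 of the 14, were called with 6 arrays and the block. A 3-fold limit left 1 probe set, EPCAM, higher in both lines. Some differences that passed no test changed sign. For the EMT lines, the brighter and the next CLDN11 probe set gave −0.0047 and −0.0097 with cyclic loess, and −0.120 to 0.246 and −0.0051 to 0.0815 when 1 line was left out. For sh4, the mean of probe sets gave −0.098 for CLDN3 and 0.113 for CLDN4. Leaving out 1 array or line gave −0.744 to 1.27 (brighter) and −0.392 to 0.753 (dimmer probe set) for CLDN1, −0.268 to 0.538 (brighter) and −0.774 to 0.111 (dimmer) for CLDN3, −0.446 to 0.336 for CLDN4, −0.354 to 0.230 for CLDN12, and −0.020 to 0.310 for CLDN16, where the arrays no longer balance the lines; without the replicate block, the same arrays gave the same mean differences. For the 3 genes with an unadjusted limma p under 0.05 for sh4, leaving out 1 array or line kept the sign. It gave 1.67 to 2.26 for EPCAM, 0.652 to 1.75 for CLDN7 and 0.796 to 1.82 for CLDN11. The mean of probe sets gave 0.507 for CLDN11. The fit with 6 arrays draws its spread from both separately scaled sets. Genes near the bacterial controls (CLDN8, CLDN16) are limited by signal over background.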
